A study of Mus musculus with 8 samples.

Results

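Cathepsins are the proteases of the lysosome, and 10 of them were followed in whole retinas of mice that lose their rods: Ctsa, Ctsb, Ctsc, Ctsd, Ctsf, Ctsh, Ctsk, Ctsl, Ctss and Ctsz. They were chosen by gene symbol among the 57010 mouse gene identifiers of the counts table, and all 10 were found and had enough reads to be tested, out of 20457 genes tested. WT mice at postnatal day 15 (WT P15) were set beside rd10 mice at P15, P18 and P21, with 2 libraries per group and 8 in all. Each library came from 1 whole retina. The rd10 mice were homozygous for a missense mutation of Pde6b, the rod phosphodiesterase subunit, and the study's methods name wild-type littermates as controls. No treatment was given to any of these mice. WT retinas at P18 and P21 were not analysed here, so that age and genotype cannot be told apart in the comparisons of rd10 P18 and rd10 P21 with WT P15.

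Cathepsins are made as inactive precursors, carried to the lysosome largely by mannose 6-phosphate receptors and activated there at acid pH, where they break down proteins delivered by endocytosis, phagocytosis and autophagy. Most are cysteine proteases, while cathepsin D is an aspartic and cathepsin A a serine protease. Ctss, Ctsc and Ctsh are made mostly by myeloid cells, which in the retina are chiefly microglia, and Ctsb, Ctsd, Ctsl, Ctsa, Ctsf and Ctsz are expressed more broadly, Ctsz strongly in myeloid cells as well. Ctsk is best known from osteoclasts, where it degrades collagen.

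In rd10 P18, Ctss was at 4.42, Ctsc at 4.54, Ctsd at 1.6 and Ctsf at 0.942 times the WT P15 level. The 4 stretches printed here are the 250 bases before the start site of these cathepsins, so that the motifs of their promoters can be read beside the values. They are RefSeq sequence of the GRCm38.p6 build, written from 5′ to 3′ on the strand of the gene. Capitals mark CACGTG, the E-box core found in many lysosomal genes, and GAGGAA or its reverse complement, the core of the site of PU.1, a myeloid transcription factor. Ctss lay at chr3:95526536-95526785 on the + strand, Ctsc at chr7:88277835-88278084 on the + strand, Ctsd at chr7:142387828-142388077 on the - strand and Ctsf at chr19:4854915-4855164 on the + strand.
Ctss: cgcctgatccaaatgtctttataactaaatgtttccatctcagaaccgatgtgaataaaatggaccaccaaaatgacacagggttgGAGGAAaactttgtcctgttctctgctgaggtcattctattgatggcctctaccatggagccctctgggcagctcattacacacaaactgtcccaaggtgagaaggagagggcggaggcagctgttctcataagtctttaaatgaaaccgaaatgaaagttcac
Ctsc: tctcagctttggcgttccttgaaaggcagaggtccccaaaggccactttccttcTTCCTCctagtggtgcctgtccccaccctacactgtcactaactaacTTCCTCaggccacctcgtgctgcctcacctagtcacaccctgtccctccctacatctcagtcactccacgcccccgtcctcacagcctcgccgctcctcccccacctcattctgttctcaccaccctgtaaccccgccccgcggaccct
Ctsd: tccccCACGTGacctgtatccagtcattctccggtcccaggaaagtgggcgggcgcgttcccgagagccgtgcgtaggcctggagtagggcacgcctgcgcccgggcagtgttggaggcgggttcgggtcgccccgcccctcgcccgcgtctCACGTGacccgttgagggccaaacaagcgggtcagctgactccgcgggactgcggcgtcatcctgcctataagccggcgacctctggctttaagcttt
Ctsf: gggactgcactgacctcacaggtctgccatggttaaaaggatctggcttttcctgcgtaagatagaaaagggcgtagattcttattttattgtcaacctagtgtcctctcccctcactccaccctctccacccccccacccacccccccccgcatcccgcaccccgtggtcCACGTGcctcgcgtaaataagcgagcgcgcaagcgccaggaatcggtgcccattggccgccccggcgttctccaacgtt

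Promoter windows of 300 bases, 250 before and 50 after the start site, were at hand for 8 of the 10 cathepsins, with a pair of start sites for Ctsa. CACGTG, which reads the same on both strands, was present in the windows of 4 members, Ctsa (second start site), Ctsd, Ctsl and Ctsf, and in 7.15% of 32851 mouse promoters of the same length. GAGGAA, searched on both strands, was present in the windows of 3 members, Ctss, Ctsc and Ctsk, and in 28.3% of all promoters. No window of a cathepsin held both motifs, so that no match overlapped one of the other motif. Of the cathepsins with a window, Ctsz held neither, and it was at 2.4 times its WT P15 level in rd10 P18. Ctsk, with GAGGAA, was at 1.22 times (SE 0.68 on the log2 scale). Ctsl and Ctsa, with CACGTG, were at 1.54 and 1.2 times. The motif matches are letters in a window, and binding at them was not measured.

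Total counts lay between 28076947 and 33724562 per library. Rod markers were abundant in every library, with 17200 to 44900 CPM (counts scaled to library size, after TMM) summed over 8 genes. By Xist and 4 Y-linked genes, both WT P15 retinas were from females and both rd10 P15 retinas from males, while rd10 P18 and rd10 P21 each held 1 of either sex. The comparison of rd10 P15 with WT P15 therefore cannot be told apart from one of males with females. The rd10 P18 retina that was replicate 2 stood apart in its weight on the tests: without it, 1250 genes were called between rd10 P18 and WT P15, against 303 with all libraries and 39 without WT P15 replicate 1. The labels call the 2 libraries of a group biological replicates. With 2 libraries on each side, the smallest p of an exact permutation test is 0.333, so that the tests below are those of edgeR's quasi-likelihood model over all genes.

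Between genes, levels were compared per kilobase of exon (RPKM). On this scale Ctsd was the most abundant cathepsin of the WT retina, with 160 ± 7.31 RPKM (SD, n = 2), followed by Ctsb with 82.9 ± 2.43 and Ctsf with 34 ± 2.19. Ctsz (19.5 ± 2.26), Ctsl (18.9 ± 0.901) and Ctsa (16 ± 0.359) were close to each other, and the Ctsz and Ctsl levels differed by less than their spread. Ctss followed with 9.14 ± 1.1 RPKM, ahead of Ctsh (2.62 ± 0.0386) and Ctsc (2.5 ± 0.363), whose levels could not be separated, and Ctsk was last with 0.673 ± 0.0178. Ctsd, Ctsb and Ctsk held the first, second and last place in all 4 groups. Ctss moved from place 7 in WT P15 to place 4 in rd10 P18 (40.4 ± 7.69 RPKM) and place 3 in rd10 P21 (49.7 ± 28.1 RPKM), where the 2 libraries differed widely. With the length of the principal transcript in place of all exons, a choice made after the data were seen, these places were 7, 5 and 4. On that scale the levels in WT P15 were 86.7 ± 5.59 RPKM for Ctsf, 9.16 ± 1.11 for Ctss, 7.28 ± 0.107 for Ctsh and 5.82 ± 0.846 for Ctsc (SD, n = 2). The distance of Ctss from Ctsh and Ctsc, and whether those 2 can be separated, thus depended on the length used.

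**Figure D1:**
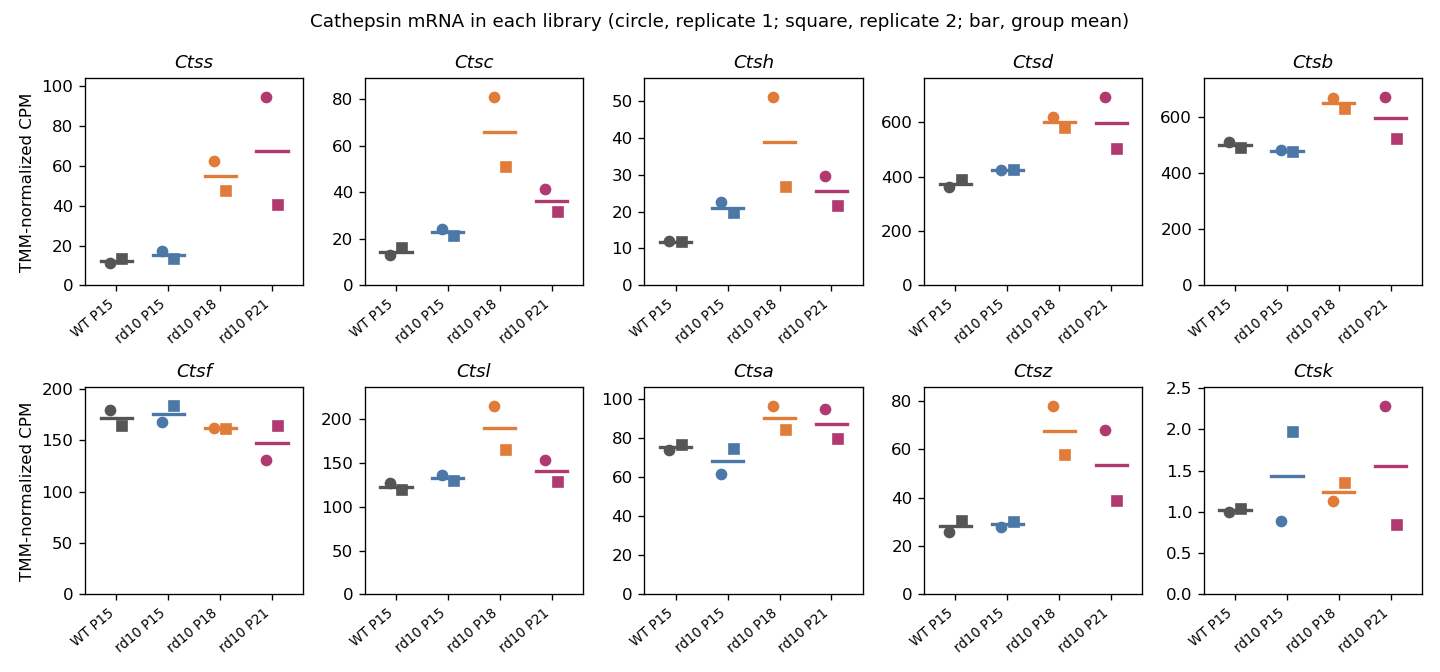
TMM-normalized CPM of the 10 cathepsins in each of the 8 libraries, one panel per gene with its own axis from 0 (circles, replicate 1; squares, replicate 2; bars, group mean). For 9 genes, all but Ctsf, both rd10 P18 points are above both WT P15 points, as held for 24.1% of all genes. Ctsk, one of these genes, was near the limit of measurement. The 2 rd10 P21 libraries lay far apart for Ctss (94.5 and 40.6 CPM).

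At P18, Ctss, Ctsc and Ctsh were 3.29 to 4.54 times their WT P15 level, while the other 7 cathepsins were at 0.942 to 2.4 times that level. Of the 10 cathepsins, 3 were called higher in rd10 P18 than in WT P15 (adjusted p under 0.05 by edgeR's quasi-likelihood test with Benjamini-Hochberg adjustment over all genes, and absolute log2 fold change over 1), where 1.48% of all genes were called. DESeq2 called 4 of them, adding Ctsz, with 4.58% of all genes called. Unadjusted p was under 0.05 for 7 cathepsins and 17.4% of all genes. For 9 cathepsins and 24.1% of all genes, both rd10 P18 libraries exceeded both from WT P15. The median log2 fold change was 2.14 for Ctss, Ctsc and Ctsh, 0.37 for the other 7 and 0.01 over all genes.

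Ctsc encodes dipeptidyl peptidase I, which activates the serine proteases of leukocyte granules. Its level was 13 and 16 CPM in the WT retinas, 24.3 and 21.4 in rd10 at P15, 80.9 and 50.8 at P18 and 41.3 and 31.5 at P21. The rd10 P18 retinas were the highest of all, and no rd10 group overlapped WT P15. Ctsc rose 4.54-fold at P18 (log2 fold change 2.18, SE 0.26, adjusted p = 0.0108, edgeR). Without WT P15 replicate 1 its log2 fold change was 2.05 and the adjusted p was 0.11 in edgeR, whereas leaving out any other single library kept the call, with adjusted p between 0.000424 and 0.0499.

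Ctss encodes cathepsin S, which keeps its activity at neutral pH and cuts the invariant chain of MHC class II. Its level was 11.3 and 13.5 CPM in the WT retinas, 17.1 and 13.1 in rd10 at P15, 62.3 and 47.5 at P18 and 94.5 and 40.6 at P21. The WT P15 and rd10 P15 libraries overlapped, and all 4 later libraries were well above them. Ctss rose 4.42-fold at P18 (log2 fold change 2.14, SE 0.39, adjusted p = 0.0416, edgeR). Its adjusted p in edgeR was 0.296 and 0.185 when WT P15 replicate 1 or 2 was left out, 0.0776 and 0.0787 when rd10 P15 replicate 1 or 2 was, and 0.181 without the first rd10 P18 retina (replicate 1). The log2 fold change stayed between 1.94 and 2.33 when any single library was left out.

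Ctsh encodes cathepsin H, a lysosomal aminopeptidase. Its level was 11.9 and 11.7 CPM in the WT retinas, 22.6 and 19.5 in rd10 at P15, 50.9 and 26.7 at P18 and 29.6 and 21.6 at P21. The 2 rd10 P18 retinas differed widely, and both lay above every P15 retina. Ctsh rose 3.29-fold at P18 (log2 fold change 1.72, SE 0.31, adjusted p = 0.0369, edgeR). Its adjusted p in edgeR was 0.224 and 0.165 when WT P15 replicate 1 or 2 was left out, and 0.0685 and 0.069 when rd10 P15 replicate 1 or 2 was. It was 0.104 when only the 4 libraries compared were fitted.

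Ctsz encodes cathepsin Z, a carboxypeptidase also called cathepsin X. Its level was 25.8 and 30.4 CPM in the WT retinas, 28 and 30.1 in rd10 at P15, 77.7 and 57.4 at P18 and 67.9 and 38.7 at P21. The P15 groups overlapped, and all 4 later retinas were above them. At P18 the level was 2.4 times that of WT P15 (log2 fold change 1.27, SE 0.27), with adjusted p = 0.0605 by edgeR and 0.000755 by DESeq2. In edgeR the adjusted p ranged from 0.0228 to 0.342 over the libraries left out singly. It was 0.0228 without rd10 P18 replicate 2, and 0.03 and 0.0284 when rd10 P21 replicate 1 or 2 was left out. It was 0.342 and 0.186 when WT P15 replicate 1 or 2 was left out, 0.107 without either rd10 P15 retina, 0.175 without rd10 P18 replicate 1 and 0.0867 with the 4 libraries compared alone.

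Ctsd encodes cathepsin D, the main aspartic protease of the lysosome. Its level was 363 and 387 CPM in the WT retinas, 424 and 425 in rd10 at P15, 622 and 579 at P18 and 693 and 502 at P21. Every rd10 retina was above both WT retinas, and the later ones were above those at P15. At P18 the level was 1.6 times that of WT P15 (log2 fold change 0.68, SE 0.17, adjusted p = 0.0889, edgeR). Because Ctsd started from so high a level, 46.6% of the difference in summed cathepsin RPKM from WT P15 to rd10 P18 came from this gene, against 15.2% from Ctss, 4.3% from Ctsc and 2.92% from Ctsh. With the principal transcript lengths these shares were 43.5% for Ctsd, 12.9% for Ctss, 8.47% for Ctsc and 6.86% for Ctsh.

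Ctsl and Ctsb encode cathepsins L and B, cysteine proteases found in most cells. Ctsl was at 127 and 119 CPM in the WT retinas, 136 and 130 in rd10 at P15, 215 and 165 at P18 and 154 and 129 at P21. It was highest at P18, at 1.54 times the WT P15 level (SE 0.16 on the log2 scale, adjusted p = 0.102, edgeR). Ctsb was at 512 and 491 CPM in the WT retinas, 485 and 476 in rd10 at P15, 670 and 630 at P18 and 672 and 523 at P21. The P15 retinas of rd10 were the lowest for Ctsb, and at P18 it was at 1.29 times the WT P15 level (SE 0.15 on the log2 scale, adjusted p = 0.251, edgeR).

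Ctsa encodes cathepsin A, which protects the lysosomal neuraminidase Neu1 and beta-galactosidase Glb1. Its level lay between 61.8 and 76.5 CPM in the 4 P15 retinas and between 79.4 and 96.4 CPM in the 4 later ones. The 2 ranges did not overlap, but at P18 the level was only 1.2 times that of WT P15 (adjusted p = 0.428, edgeR). Ctsf encodes cathepsin F, whose level stayed between 131 and 183 CPM in all 8 libraries. It was at 0.942 times the WT P15 level at P18 (adjusted p = 0.817, edgeR), and with scaling by library size alone the log2 fold change was 0.04 in place of -0.09. Ctsk was near the limit of measurement, with 24 to 80 counts per library, and no order of its groups could be read.

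**Figure D2:**
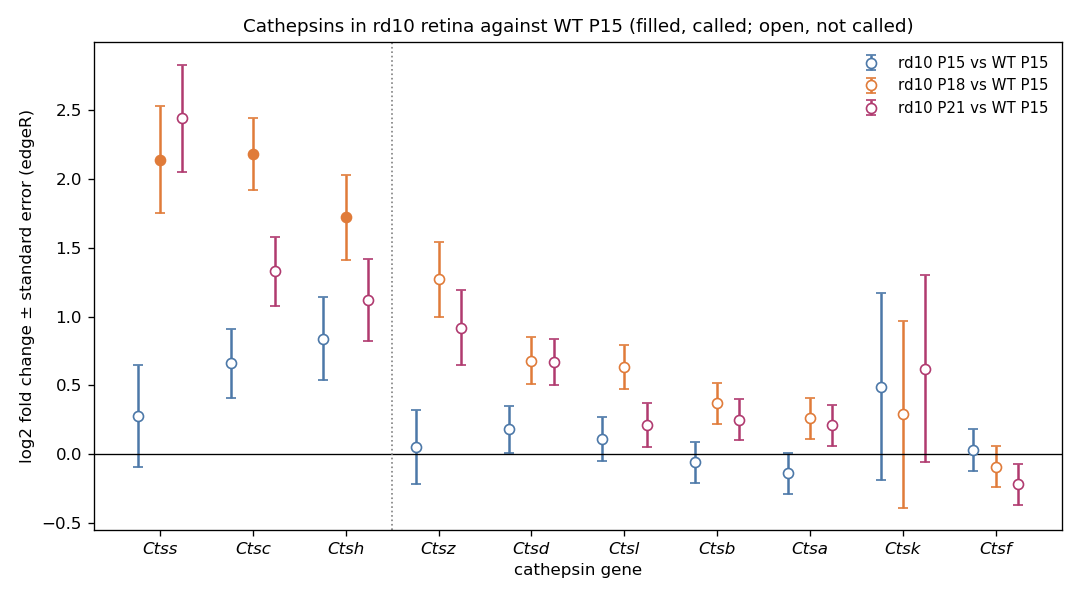
Log2 fold change of each cathepsin in rd10 P15, rd10 P18 and rd10 P21 against WT P15 (points, edgeR estimate; bars, standard error; filled points, called), with Ctss, Ctsc and Ctsh left of the dotted line. Called points are those of Ctsc (2.18), Ctss (2.14) and Ctsh (1.72) at P18, and the points of Ctsf lie near 0 in all 3 comparisons.

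At P21, Ctss was at 5.44 times its WT P15 level, Ctsc at 2.51 times, Ctsh at 2.17 times, Ctsz at 1.9 times and Ctsd at 1.59 times, the others between 0.86 and 1.54 times. None of the 10 was called by edgeR's quasi-likelihood test, where 0.386% of all genes were called, while 5 had an unadjusted p under 0.05, as did 11.8% of all genes. DESeq2 called 3 of them, Ctsc, Ctsh and Ctss, with 2.76% of all genes called. For 8 cathepsins and 24.9% of all genes, both rd10 P21 libraries exceeded both from WT P15. The adjusted p by edgeR was 0.0602 for Ctss, 0.0824 for Ctsc, 0.176 for Ctsh, 0.21 for Ctsz and 0.145 for Ctsd. The 2 rd10 P21 retinas differed, replicate 1 being higher for 9 of the 10 cathepsins and replicate 2 for Ctsf alone. By Xist and the Y-linked genes, replicate 1 was from a male and replicate 2 from a female. The same held for the sexes at P18, where replicate 1 was higher for every cathepsin but Ctsk. Sex and other differences between the retinas of a group cannot be told apart, and both WT P15 retinas were from females. Without rd10 P21 replicate 1 the log2 fold change of Ctss was 1.71 in place of 2.44 (adjusted p = 0.115, edgeR), and without replicate 2 it was 2.93 (adjusted p = 0.00754, edgeR).

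At P15, Ctsh was at 1.79 times (unadjusted p = 0.0236, adjusted p = 0.314, edgeR) and Ctsc at 1.58 times (unadjusted p = 0.0298, adjusted p = 0.337, edgeR) the WT level. For both, the rd10 libraries lay above the WT ones, and Ctss (1.22 times) and Ctsz (1.03 times) overlapped with WT. No cathepsin was called by edgeR, where 0.23% of all genes were called, nor by DESeq2, where 2.04% were. Unadjusted p was under 0.05 for 2 cathepsins and 12.3% of all genes. For 4 cathepsins, Ctsc, Ctsh, Ctsd and Ctsl, and for 24.8% of all genes, both rd10 P15 libraries exceeded both from WT P15. With a term for sex in the fit, the log2 fold change at P15 was -0.52 for Ctss in place of 0.28, and the median of Ctss, Ctsc and Ctsh was 0.13 in place of 0.66. That term was estimated from rd10 P18 and rd10 P21 alone, since WT P15 held only females and rd10 P15 only males. Whether the same sex difference applied at P15 was not tested.

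Within rd10 the genotype is the same at all ages, but both P15 retinas were from males and the later groups held both sexes. From P15 to P18, Ctsc rose 2.88-fold (log2 fold change 1.53, SE 0.25, adjusted p = 0.0485, edgeR) and was the only cathepsin called by edgeR without a term for sex, with 0.591% of all genes called. DESeq2 called 3, Ctsc, Ctss and Ctsz, with 2.82% of all genes called. Ctss was at 3.63 times (adjusted p = 0.104, edgeR), Ctsz at 2.33 times (adjusted p = 0.12, edgeR) and Ctsh at 1.84 times (adjusted p = 0.281, edgeR) the rd10 P15 level. Unadjusted p was under 0.05 for 8 cathepsins and 12.9% of all genes, and both rd10 P18 libraries lay above both rd10 P15 libraries for 8 cathepsins and 22.3% of all genes. The call of Ctsc was close to the threshold. Its log2 fold change was 1.54 and 1.53 when WT P15 replicate 1 or 2, which is not part of this comparison, was left out. It was 1.63 and 1.44 without rd10 P15 replicate 1 or 2, and 1.15 and 1.82 without rd10 P18 replicate 1 or 2. The call was lost when any single P15 library or rd10 P18 replicate 1 was left out, in fits with fewer libraries to estimate the spread. The adjusted p of Ctsc was 0.119 in an edgeR fit of the 4 libraries compared. With a term for sex, edgeR called 4 cathepsins at P18 against rd10 P15, Ctsc (adjusted p = 0.00744), Ctss (0.0108), Ctsz (0.0108) and Ctsh (0.0402), in a fit that called 275 genes in place of 121.

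From P15 to P21 within rd10, Ctss was at 4.47 times (log2 fold change 2.16, SE 0.38, adjusted p = 0.0775, edgeR), Ctsz at 1.84 times and Ctsc at 1.59 times the earlier level. Without rd10 P21 replicate 1 the log2 fold change of Ctss was 1.42 (adjusted p = 0.139, edgeR). No cathepsin was called by edgeR, with 0.401% of all genes called, and Ctss alone was called by DESeq2, with 2.62% of all genes called. Unadjusted p was under 0.05 for 5 cathepsins and 12.8% of all genes. Both rd10 P21 libraries lay above both rd10 P15 libraries for 6 cathepsins and 27% of all genes.

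From P18 to P21, Ctsc was at 0.553 times (unadjusted p = 0.0083, adjusted p = 0.429, edgeR) and Ctsl at 0.747 times (unadjusted p = 0.0312, adjusted p = 0.44, edgeR) the earlier level. For these 2 cathepsins both rd10 P21 libraries lay below both rd10 P18 libraries, as they did for 22% of all genes. Ctss, at 1.23 times, overlapped between the ages. No cathepsin was called by edgeR, with 0.0196% of all genes called, or by DESeq2, with 0.628% called, and 2 had an unadjusted p under 0.05 in edgeR, as had 10.8% of all genes. Whether Ctss and Ctsc followed different courses between these ages was not tested. The comparisons with WT P15 share its 2 libraries, and those with rd10 P15 share that group's.

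The share of cathepsin CPM that came from Ctss, Ctsc and Ctsh shows the shift library by library. It was 2.75% and 3.14% in the WT retinas, 4.68% and 3.93% in rd10 at P15, 9.52% and 6.93% at P18 and 8.35% and 6.11% at P21. Every rd10 retina was above both WT retinas, and the later ones above those at P15. The summed CPM of all 10 cathepsins went from 1320 and 1310 in WT P15 and 1370 in both rd10 P15 retinas to 2040 and 1800 at P18 and 1980 and 1530 at P21. In bulk retina, more myeloid cells and more cathepsin mRNA per cell cannot be told apart, nor can fewer cells and less RNA per cell.

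Most microglial markers were higher where these cathepsins were. Of 12 markers, edgeR called 4 higher in rd10 P18 than in WT P15, with 1.48% of all genes called: Itgam (CD11b), C1qa (complement), Fcrls and Tmem119. All 12 markers were higher there without overlap, as were 24.1% of all genes. Their summed level was 43.4 to 53.3 CPM in WT P15, 79.3 to 79.4 in rd10 P15, 221 to 234 in rd10 P18 and 152 to 317 in rd10 P21, and none of the 12 was at 0 counts in all libraries. At P21, Itgam, C1qa and Fcrls were called, with 0.386% of all genes called. From P15 to P18 within rd10, 11 of the 12 were higher without overlap, as were 22.3% of all genes. But P2ry12, a receptor of resting microglia, was lower without overlap, as were 20.4% of all genes. It was at 0.513 times (adjusted p = 0.254, edgeR), with 7.86 and 8.07 CPM at P15 and 4.41 and 3.75 at P18. Pearson's r over the 8 libraries is a description of libraries that share group and depth. With Csf1r it was 0.91 for Ctss, 0.42 for Ctsc and 0.4 for Ctsh. For the other cathepsins r with Csf1r was 0.88 (Ctsd), 0.74 (Ctsb), 0.68 (Ctsz), 0.64 (Ctsk), 0.62 (Ctsa), 0.33 (Ctsl) and -0.88 (Ctsf). With Cx3cr1, another microglial marker, it was 0.29 for Ctss, 0.7 for Ctsc and 0.54 for Ctsh, and from -0.18 (Ctsk) to 0.6 (Ctsl) for the others. With Gfap, a gene of reactive Muller glia, it was 0.55 for Ctss, 0.88 for Ctsc and 0.74 for Ctsh. The part of microglia in the rise of Ctss, Ctsc and Ctsh was not tested. C1qa was the gene most like Ctss among all those compared, so that a steady ratio of the pair restates that choice. Ctss per C1qa was 2.19 and 2.31 in the WT retinas, 1.93 and 2.3 in rd10 at P15, 1.85 and 1.84 at P18 and 1.78 and 1.85 at P21. Ctss per Csf1r, the receptor that microglia need to survive, was 0.67 and 0.805 in the WT retinas, 0.597 and 0.519 in rd10 at P15, 1.83 and 0.907 at P18 and 1.12 and 1.01 at P21. Ctss per Ctsc was between 0.612 and 0.935 in the 6 libraries of WT P15, rd10 P15 and rd10 P18, and 2.29 and 1.29 in rd10 P21. These ratios are descriptions without a test.

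**Figure D3:**
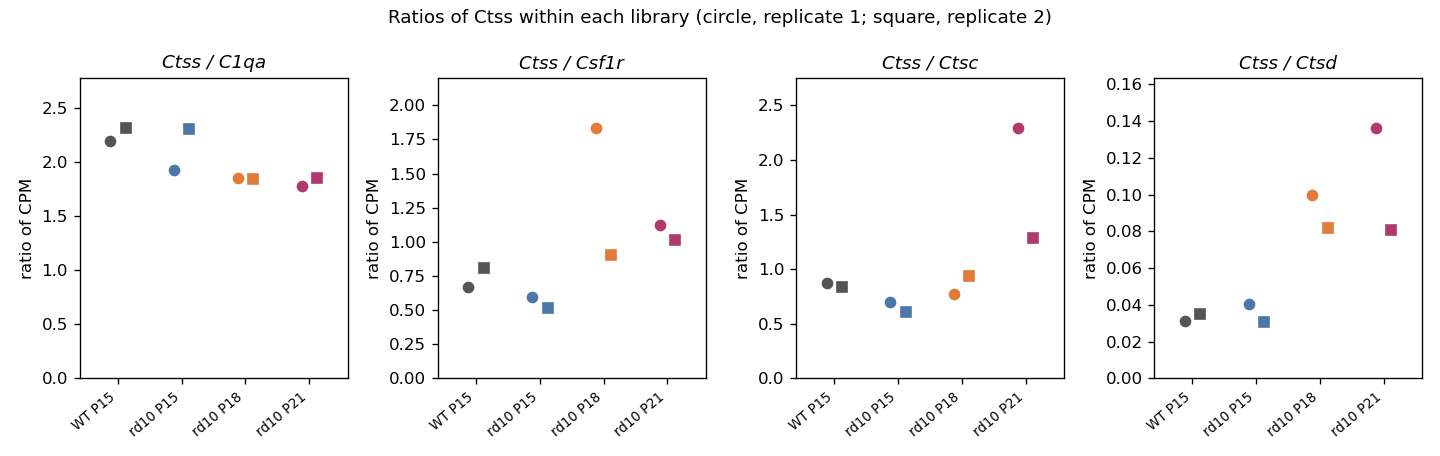
Ratio of Ctss CPM to that of C1qa, Csf1r, Ctsc and Ctsd within each library (circles, replicate 1; squares, replicate 2; axes from 0). Ctss per C1qa kept to a range of 1.78 to 2.31 in all 8 libraries, while Ctss per Ctsd was 0.0309 to 0.0403 in the P15 libraries and 0.0807 to 0.136 in the later ones.

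Other cells of the eye were read by their markers in the same way. Of 8 monocyte and neutrophil markers, Mpo and Elane were at 0 in every library and 4 could be tested, of which Lyz2 (lysozyme) was called higher at P18, and the summed level was 4.07 to 8.37 CPM in the P15 libraries and 15.7 to 49.2 CPM later. Of 8 reactive Muller glia genes, 7 were called higher at P18 (Lcn2, Osmr, Socs3, Serpina3n, Vim, Gfap and Edn2), with 1.48% of all genes called. The sum of the 8 went from 196 to 204 CPM in WT P15 to 1310 to 1470 CPM in rd10 P18. At P21, 4 of them were called higher (Osmr, Serpina3n, Gfap and Edn2). Of 8 rod markers, Nr2e3 was called lower at P18 and Gnat1 at P21, and of 5 cone markers Arr3 was called lower at P15 and P18. At P15 Edn2 was called lower and the endothelial gene Cldn5 higher, the latter also at P18. None of 10 pigment epithelium markers was called at P18, when all 10 were lower (Rpe65 at 0.122 times, adjusted p = 0.0887, and Lrat at 0.373 times, adjusted p = 0.149, edgeR), and Lrat was called lower at P21. At P15 this list went the other way, with 9 of 10 higher than in WT and a median log2 fold change of 1.17. Of these, 7 were higher without overlap, as were 24.8% of all genes. From P15 to P18 within rd10, 9 of 10 were lower without overlap (median -2.57), as were 20.4% of all genes. The summed level for WT P15 was 385 to 531 CPM, against 610 to 659 for rd10 P15. It was 299 to 338 in rd10 P18 and 410 to 418 in rd10 P21. Rlbp1, also on the list of general Muller glia markers, made up most of each sum. It held 346 of 385 and 396 of 531 CPM for the WT retinas. For rd10 it held 426 of 659 and 346 of 610 at P15, and 294 of 338 and 271 of 299 at P18. At P21 it held 375 of 418 and 369 of 410. The sums thus say little of the other listed genes. From rd10 P15 to P21, 7 of 10 were lower and 1 higher without overlap (median -2.08), where 25.5% of all genes were lower. Rpe65 differed between the WT retinas (94 and 478 counts). Of 5 tested lens markers, Cryab alone was called at P18, and Mip was at 0 in every library. Cryab made up 25.1 and 38.1 of the 31.1 and 41.8 CPM summed over the lens markers in the rd10 P18 retinas. Fibroblast markers (none of 4 tested called, Lum at 0), red blood cell genes (none of 5 called) and markers of Muller glia in general (none of 6 called) made up the rest. Against rd10 P15, Itgam and 5 of the reactive Muller glia genes were called higher and Nr2e3 lower at P18, while Arr3 and 4 of those glial genes were called higher and Lrat lower at P21. The part of these cells in the cathepsin levels was not tested.

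The genes that serve the cathepsins were read from lists of lysosomal genes. Of 10 genes for sorting and activation, none was called at P18, with a median log2 fold change of -0.01. The smallest p-values were those of Lgmn, the asparagine endopeptidase that processes cathepsins (1.52 times, adjusted p = 0.0782, edgeR), and Sort1, the receptor sortilin (0.736 times, adjusted p = 0.31, edgeR). Of 12 tested genes of the proton pump that acidifies the lysosome, none was called (median 0.11). Atp6v0c was at 1.67 times (adjusted p = 0.22, edgeR) and Atp6v0d1 at 1.18 times (adjusted p = 0.415, edgeR). None of the 4 transcription factor genes of the MiT/TFE family, which drive lysosomal genes, was called. Tfeb was at 1.39 times (adjusted p = 0.498, edgeR), and Tfec had 0 counts in WT P15 and 15 in the 2 rd10 P18 libraries, at least 4.45-fold higher when WT P15 is set at a floor of 3 counts over the group (adjusted p = 0.43, edgeR).

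Among 18 hydrolases that work beside cathepsin A and the others, 1 was called higher at P18 by edgeR, and the median log2 fold change of the 18 was 0.18. Among 12 lysosomal membrane and associated genes, Cd63, a tetraspanin, was called at P18 (3.23 times, adjusted p = 0.0222, edgeR), with a list median of 0.46. Cd68, a macrophage glycoprotein of the lysosome, was at 4.3 times (adjusted p = 0.093, edgeR). Within rd10, Cd63 was also called at P18 against P15.

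Cystatins and some serpins inhibit cathepsins. Of 7 inhibitors, 6 could be tested and none was called at P18. Serpinb6a was at 2.06 times (adjusted p = 0.0533, edgeR). Cst7, cystatin F, had 0 counts in all 4 P15 libraries, 0.597 and 0.63 CPM in rd10 P18 and 2.48 and 1.29 CPM in rd10 P21, at least 11.9-fold higher at P18 (adjusted p = 0.093, edgeR) and at least 37.6-fold higher at P21 than a floor of 3 counts over WT P15. Cst3, cystatin C, the most abundant inhibitor, was at 679 and 683 CPM in the WT retinas, 624 and 666 in rd10 at P15, 908 and 566 at P18 and 450 and 459 at P21. Of 6 genes of antigen presentation, all were higher at P18 without overlap, as were 24.1% of all genes. H2-Ab1, an MHC class II chain, was called (16.4 times, adjusted p = 0.0405, edgeR). Of 4 further cathepsins, Ctsg was at 0 in every library, and of the 2 that could be tested Ctso was at 0.947 times (adjusted p = 0.872, edgeR) and Ctsw at 1.84 times (adjusted p = 0.823, edgeR) the WT P15 level at P18.

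**Figure D4:**
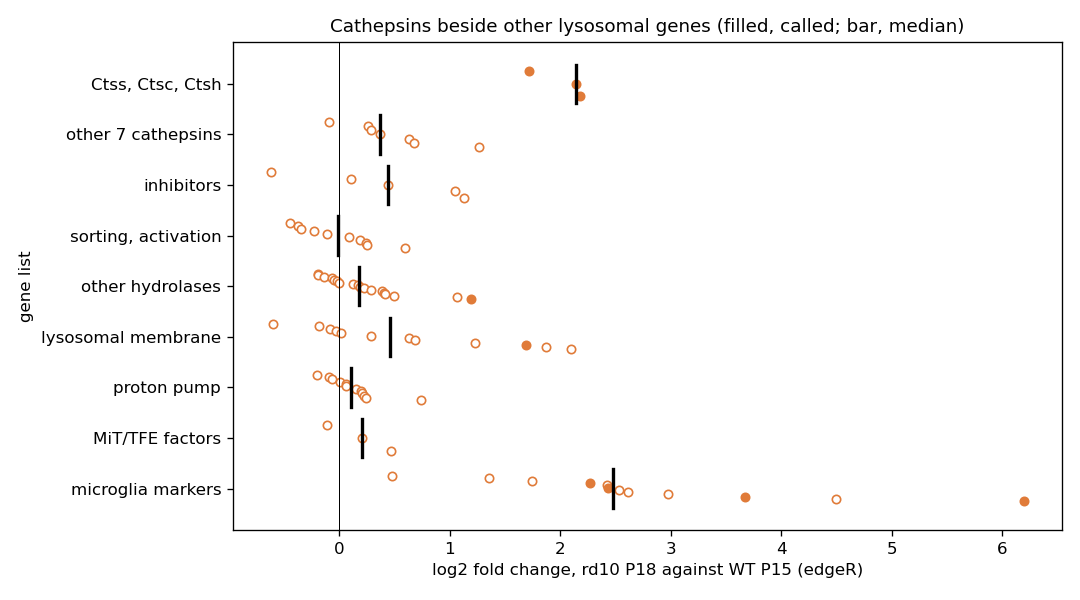
Log2 fold change in rd10 P18 against WT P15 of the genes of 9 lists (points, edgeR; filled, called; bars, median of the points shown), with Cst7, Serpinb1a, Atp6v0d2 and Tfec left out because they had 0 counts in WT P15. The 3 points of Ctss, Ctsc and Ctsh lie among those of the microglial markers, which span 0.48 to 6.2. So do those of Ctsz (1.27), Ctsd (0.68) and Ctsl (0.63), and of lysosomal membrane genes such as Cd68 (2.1) and Cd63 (1.69). The sorting and proton pump genes lie around 0.

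Genes whose log2 CPM closely followed a cathepsin over the 8 libraries were chosen by Pearson's r among 15129 genes, as a description of libraries that share group, depth and dissection. For Ctss they were C1qa (r = 0.999) and Ifi30 (0.988), for Ctsz Tlr2 (0.996), Lgals9 (0.995) and Irgm1 (0.994), and for Ctsd Hexa (0.992), Mxra7 (0.991) and Axl (0.989). For Ctsc they were Crym (0.99), Cd9 (0.989) and Shisa5 (0.987), and for Ctsh Cnp (0.983), Rhoc (0.978) and Carhsp1 (0.977). For Ctsb they were Oas2 (0.989) and Irgm2 (0.987), for Ctsl Ssna1 (0.987), Gabarap (0.983) and Cotl1 (0.973), and for Ctsa Nfkbia (0.976), Parp10 (0.974) and Skap2 (0.972). The closest gene was Cstf3 for Ctsf (0.975) and Rftn1 for Ctsk (0.908). Ctss and Ctsk are neighbours on chromosome 3, 17423 bases apart.

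Some counts may be shared with overlapping genes, since whether reads were counted by strand is not given in the sources used here. Ctsb shares 12.8% of its exon bases with Fdft1 on the opposite strand, whose counts came to 11.8% of those of Ctsb. Ctsa shares 10.5% of its exon bases with Pltp, also on the opposite strand, whose counts came to 29.6% of those of Ctsa. Ctsd shares 34.4% with Gm49369 on its own strand, which had 0 counts in every library, and Ctsl shares 26.8% with the antisense gene Gm47123, which had almost none. Ctss, Ctsc and Ctsh share no exon base with another annotated gene.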

How the data were processed

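The authors deposited 1 table of raw read counts per gene, without normalization, for poly(A) RNA of 8 whole retinas. HISAT2 is named in the submitters' processing notes, whereas no source used here gives the counting tool, genome build or annotation. Symbols and exon lengths came from GENCODE M21 (GRCm38), which names 52081 of the 57010 identifiers, and promoters from RefSeq (GRCm38.p6). Genes passing filterByExpr (minimum count 10, minimum total count 15) were scaled by TMM and fitted with edgeR 4.0.16 (R 4.3.3, limma 3.58.1) to all 8 libraries in 4 groups, by the robust quasi-likelihood test with Benjamini-Hochberg adjustment over 20457 genes. Calls needed an adjusted p under 0.05 together with an absolute log2 fold change over 1. Alternatives were DESeq2 1.42.0, RLE factors, library size only, no filter, a replicate block, a sex term, the 4 libraries compared, each library left out and no fold threshold. The edgeR fit was also run on counts simulated from its own estimates, a check of the code and not of the real spread between retinas. RPKM used the union of exons. All cathepsins were named, with each list's called genes or, where none was called at P18, the 2 with the smallest p (fewer for lists of other cell types), and the 3 most alike genes with a mean count of at least 50 (1 for Ctsf and Ctsk), except that 2 genes under this rule are not reported here. Other genes named, such as Cst3 and Cd68, were chosen after their values were seen. The members and lists were chosen with earlier results of these data known.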

Additional observations from a re-analysis of the deposited data

Results flagged for a closer look

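Among the rd10 retinas, the course of 2 cathepsins after P15 stood out because the groups differed by a test or moved in opposite directions from WT P15. Ctsc was higher at P18 than at P15 within rd10, with a log2 fold change of 1.53 (adjusted p = 0.0485, edgeR's quasi-likelihood test with Benjamini-Hochberg adjustment). Ctsb lay below WT P15 in both rd10 P15 retinas and above it in all 4 later rd10 retinas. The difference at P15 was small, with a log2 fold change of -0.06 (adjusted p = 0.92, edgeR). There, 25.2% of all genes were lower without overlap, and males were set against females. Higher without overlap were 24.1% of all genes at P18 and 24.9% at P21. The log2 fold change of Ctsb against rd10 P15 was 0.44 at P18 (adjusted p = 0.283, edgeR) and 0.32 at P21 (adjusted p = 0.427, edgeR). Neither difference passed the threshold.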

How the results depend on the processing

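With all libraries, edgeR called 0, 3 and 0 cathepsins in rd10 at P15, P18 and P21 against WT P15, and 1, 0 and 0 in rd10 P18 against P15, P21 against P15 and P21 against P18. DESeq2 called 3 at P21 against WT P15, 3 at P18 and 1 at P21 against rd10 P15 (573, 601 and 529 genes in all); no filter called 1 and the 4 libraries alone 1 at P21 against WT P15 (160 and 129 genes in all), and the 4 libraries alone 0 at P18 against rd10 P15 (74 genes). The sex term called 4 at P18 and 2 at P21 against rd10 P15, where it called 275 and 156 genes in all against 121 and 82 without it. It was estimated from rd10 P18 and rd10 P21 alone, the groups that held both sexes. Leaving out single libraries gave 0 to 4 at P18 and 0 to 2 at P21 against WT P15, 0 to 3 at P18 and 0 to 1 at P21 against rd10 P15, and 0 to 1 between P21 and P18, while the calls over all genes ran from 39 to 1250, 4 to 210, 16 to 977, 10 to 217 and 3 to 963. With the sex term, the P15 log2 fold changes against WT were -0.11 for Ctsd, -0.1 for Ctsk, -0.21 for Ctsl, -0.52 for Ctss and -0.58 for Ctsz, the median of Ctss, Ctsc and Ctsh was 0.13 at P15 and 1.74 at P18, that of the other 7 was -0.21 at P15, and Ctsk was at 0.14 in P18 against rd10 P15. By library size alone Ctsf was at 0.04 at P18. Leaving out single libraries moved the log2 fold change from -0.03 to 0.1 for Ctsf, -0.19 to 0.96 for Ctsk and -0.07 to 0.17 for Ctsz at P15, and from -0.28 to 1.17 for Ctsk at P21, all against WT P15. Against rd10 P15 it moved from -0.66 to 0.48 for Ctsk at P18, and from -0.77 to 0.81 for Ctsk and -0.04 to 0.22 for Ctsl at P21. Between P21 and P18 it moved from -0.19 to 0.07 for Ctsa, -0.31 to 0.05 for Ctsb, -0.26 to 0.21 for Ctsd, -0.3 to 0.02 for Ctsf, -0.57 to 0.88 for Ctsk, -0.44 to 0.78 for Ctss and -0.81 to 0.01 for Ctsz. The median of Ctss, Ctsc and Ctsh then lay at 1.81 to 2.33 for P18 against WT P15, 1.15 to 1.82 for P18 against rd10 P15 and -0.99 to -0.06 for P21 against P18, and that of the other 7 at 0.07 to 0.43 for P21 against WT P15, 0.12 to 0.49 for P21 against rd10 P15 and -0.31 to 0.05 for P21 against P18. The cause of these shifts was not tested. With the replicate number as a block, 3 cathepsins were called at P18 against WT P15 and no call of a cathepsin changed. No source used here states that the numbers pair the retinas, and correlations of same-numbered deviations were -0.02 to 0.06. With 2 libraries per group these correlations cannot decide whether same-numbered retinas shared a factor. In both rd10 P18 and rd10 P21, replicate 1 was from a male and replicate 2 from a female. Ctsk had 24 to 80 counts per library and a standard error of 0.68 on the log2 scale at P18, and its 2 libraries differed up to 80 and 24 counts within a group.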
